A study of Mus musculus with 18 samples.

Results

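Heat shock proteins are chaperones, proteins that help others fold, refold or be handed on for degradation. The messenger RNA of 10 of their genes was followed in RAW 264.7 cells, a mouse macrophage line. The genes were chosen by name as the well known chaperones and cochaperones of the cytosol and the mitochondrial matrix. Earlier results of these data were known when they were chosen. Each of the 10 names was found once among the 56748 genes of the count table. They are the HSP70 genes *Hspa1a*, *Hspa1b* and *Hspa8*, the HSP110 gene *Hsph1*, the HSP90 gene *Hsp90aa1*, the J protein genes *Dnaja1* and *Dnajb1*, the cochaperone gene *Bag3*, and the genes of the mitochondrial chaperonin, *Hspd1* and *Hspe1*.

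The study asked how tert-butylhydroquinone (TBHQ), a phenolic antioxidant used as a food preservative, alters the response of these cells to a bacterial and to a viral type of stimulus. The 6 conditions had 3 libraries each: an untreated control, TBHQ alone (5 µM for 4 h), lipopolysaccharide (LPS, 0.1 µg/mL for 12 h), the double-stranded RNA mimic polyinosinic:polycytidylic acid (PIC, 20 µg/mL for 12 h), and LPS or PIC for 12 h after 4 h of TBHQ, written LPS+TBHQ and PIC+TBHQ. By design the control, kept in medium, and the stimulated cells were on a 12 h schedule and TBHQ alone on 4 h, although the sample labels give no time for the control. In TBHQ against control an effect of the compound and one of the harvest time therefore cannot be told apart. TBHQ was added from a stock in the solvent DMSO, and the methods name no DMSO control for the RNA libraries. In every comparison that adds TBHQ, an effect of the solvent cannot be told apart from one of the compound. All libraries come from 1 cell line and the labels give no separate passages or days for the replicates, so the spread between libraries may be that of parallel wells.

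In resting cells the heat shock factor HSF1 is held inactive by the chaperones themselves. When unfolded protein draws the chaperones away, HSF1 forms trimers and binds repeats of the letters nGAAn in the promoters of chaperone genes. Some of these genes are also transcribed at a high level without stress, because every growing cell folds new protein. A microbial signal makes macrophages synthesize and secrete large amounts of cytokines. Secreted proteins fold in the endoplasmic reticulum, whose chaperones are counted at the end.

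Libraries held 14423390 to 18851626 counts, the number of sequenced fragments assigned to genes. A floor of 3 counts, taken as the smallest signal, corresponds to 0.159 to 0.208 CPM (each library rescaled to the same total of counts) and covers counting error only. Of 10 macrophage markers, 9 were expressed highly enough to be tested, with *Lyz2* the most abundant at a mean of 4021 FPKM (fragments scaled by gene length and by sequencing depth), while *Mertk* was near 0. Of the markers of fibroblasts, epithelium, T cells, B cells and endothelium, only *Kdr* reached the level needed for a test, and it had at most 26 counts in a library. In RNA from whole wells, fewer cells expressing a gene and less RNA of it per cell cannot be told apart.

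Levels between genes are given in FPKM, which divides by gene length. The deposited FPKM also carry a constant per library that follows the condition (0.943 to 0.951 in the control, 1.005 to 1.015 with LPS and 1.112 to 1.116 with PIC), so the order of conditions in FPKM depends on that scaling. Averaged over the 18 libraries, *Hspa8* (388 FPKM), *Hsp90aa1* (354), *Hspd1* (321) and *Hspe1* (135) were the abundant genes. *Dnaja1* (33.2), *Hsph1* (30.9), *Bag3* (18.5) and *Dnajb1* (16.5) lay below them. The stress-inducible HSP70 genes were the least abundant, *Hspa1b* at 1.44 FPKM and *Hspa1a* at 0.168. *Hspa8*, *Hsp90aa1* and *Hspd1* ranked 109, 118 and 139 by mean FPKM among the 13691 genes tested, and *Hspa1a* ranked 13217. Together the 10 genes took 0.455% of all counts in the control (mean of 3 libraries), 0.475% after LPS and 0.502% after PIC. The share was 0.432% in cells given TBHQ alone, 0.471% in LPS+TBHQ and 0.458% in PIC+TBHQ.

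**Figure D1:**
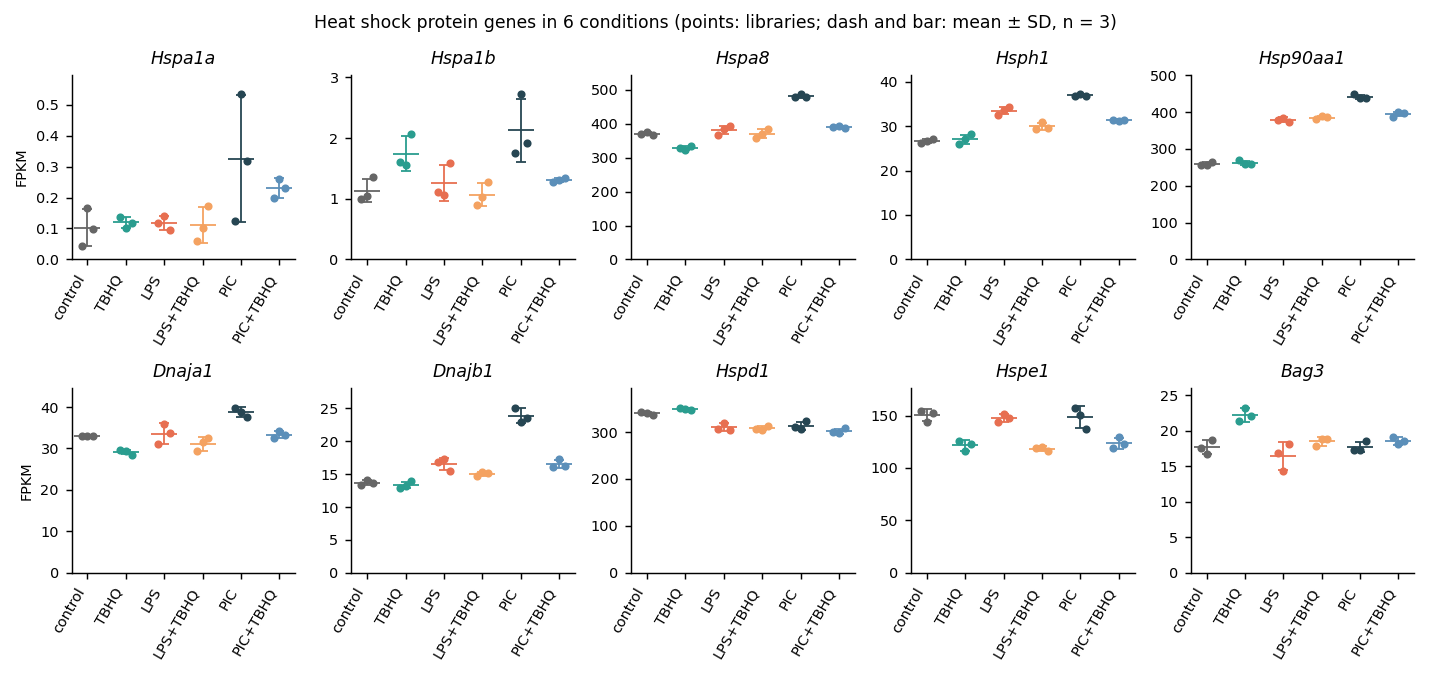
FPKM (vertical axis, from 0) of each gene in the 6 conditions. Points are libraries, the dash is the mean and the bar the SD (n = 3). In the panels of Hspa8, Hsph1, Hsp90aa1, Dnaja1 and Dnajb1 the PIC libraries lie above those of all other conditions, an order that for Dnaja1 and Hsph1 rests on the scaling: by total library size the log2FC (log2 of the ratio) of Dnaja1 in PIC against control is -0.01 and that of Hsph1 in PIC against LPS 0.00.

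Some reads cannot be assigned to these genes with certainty, since parts of their transcripts also occur elsewhere in the genome. Of the words of 50 bases in its transcripts, *Hspa1a* shares 66.3% with another gene, *Hspa1b* 62.3%, *Hsp90aa1* 47.5%, *Hspd1* 42.1%, *Hspa8* 39.4%, *Hspe1* 22.8%, *Dnaja1* 20.6% and *Dnajb1* 0.412%, while *Hsph1* and *Bag3* share none. Most of what *Hspa1a* shares is with *Hspa1b*, 58.8% of its words. *Gm15459*, annotated as a processed pseudogene of *Hspa8* sequence and singled out after its values were seen, had 18730 to 29748 counts, or 83.2% to 88.6% of the counts of *Hspa8* in the same library. The level of *Hspa8* is therefore uncertain, and its changes are also given below with the counts of both summed. Copies of 2 other members were small beside them: *Gm12346* had 175 to 353 counts beside *Hsp90aa1*, and *Hspd1-ps3* 161 to 358 beside *Hspd1*.

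Genes were tested with edgeR in a fit over all 18 libraries, which were scaled by TMM, a method that sets the bulk of genes to no change. The alternative of scaling each library by its total alone is given below beside counts of called genes and calls that it alters. A change is given as log2FC, the log2 of the ratio between conditions, ± its standard error, and is called when its FDR (p adjusted over all 13691 genes tested) is below 0.05. Each condition has n = 3 libraries. All 10 genes were tested, but *Hspa1a* passed the filter on low counts only through libraries of PIC and PIC+TBHQ, 2 of 3 in each, and through 0 in the other conditions. A gene that passes through its high groups had to differ, so its calls add no support to the counts of genes below.

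HSP70 proteins bind exposed hydrophobic stretches of a client and release them in a cycle driven by ATP. *Hspa1a* and *Hspa1b* encode the stress-inducible form. *Hspa1a* had 2, 8 and 5 counts in the control libraries, 7, 5 and 6 with TBHQ, 5, 6 and 4 with LPS and 3, 5 and 9 in LPS+TBHQ. PIC gave 5, 22 and 16 counts and PIC+TBHQ 9, 11 and 11. The second and the third PIC libraries were the highest of all 18, the PIC+TBHQ libraries and the third LPS+TBHQ library were just above the control range, and the first PIC library lay within it. With PIC against control the gene was called (log2FC = 1.61 ± 0.51, FDR = 0.00679), but without the second PIC library it was not (log2FC = 1.11, FDR = 0.0968), and at such counts the fitted fold depends on how low counts are handled.

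*Hspa1b* stood at 0.999, 1.05 and 1.35 FPKM in the control, 1.10, 1.07 and 1.60 with LPS and 1.75, 2.72 and 1.92 with PIC. TBHQ alone gave 1.61, 1.55 and 2.07 FPKM, LPS+TBHQ 0.896, 1.03 and 1.28 and PIC+TBHQ 1.28, 1.31 and 1.33. All PIC and all TBHQ libraries were above every control library, whereas the LPS libraries overlapped them, and the PIC+TBHQ libraries were below every PIC library. By mean the order was PIC, TBHQ, PIC+TBHQ, LPS, control, LPS+TBHQ, and of the neighbours in this order only TBHQ and PIC+TBHQ did not overlap. *Hspa1b* rose with PIC (log2FC = 0.88 ± 0.20, FDR = 2.49e-04) and with TBHQ (log2FC = 0.61 ± 0.20, FDR = 0.0191), and was lower in PIC+TBHQ than in PIC (log2FC = -0.69 ± 0.20, FDR = 0.00662). The TBHQ call was lost without the first control library (FDR = 0.0783), the second control library (0.0733) or the third TBHQ library (0.127), where the log2FC was 0.53, 0.56 and 0.47. The call in PIC+TBHQ against PIC was lost without the second PIC library (log2FC = -0.50, FDR = 0.0806). With the counts of *Hspa1a* and *Hspa1b* summed, TBHQ against control gave a log2FC of 0.58 (FDR = 0.0267) and PIC+TBHQ against PIC -0.66 (FDR = 0.00793).

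*Hspa8* encodes HSC70, the constitutive HSP70 of the cytosol, which also carries clients to the lysosome and uncoats clathrin vesicles. Its control libraries had 371, 375 and 367 FPKM and its PIC libraries 479, 487 and 479. LPS gave 368, 385 and 393, LPS+TBHQ 359, 369.8 and 385, PIC+TBHQ 391, 393 and 387 and TBHQ 328, 323 and 336 FPKM. The PIC libraries were above and the TBHQ libraries below all others, and the 4 conditions between them, PIC+TBHQ, LPS, LPS+TBHQ and control in order of mean, overlapped from neighbour to neighbour. *Hspa8* rose with PIC (log2FC = 0.36 ± 0.03, FDR = 5.79e-13, but 0.14 under total library size) and fell with TBHQ alone (log2FC = -0.18 ± 0.03, FDR = 1.54e-05). After PIC, TBHQ lowered it (log2FC = -0.29 ± 0.03, FDR = 5.74e-10), and after LPS no change was called (log2FC = -0.04 ± 0.03, FDR = 0.332). With the counts of *Gm15459* added to those of *Hspa8*, the log2FC was 0.38 with PIC, -0.16 with TBHQ and -0.31 in PIC+TBHQ against PIC, each called.

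*Hsph1* encodes HSP110, a nucleotide exchange factor of HSP70 and a member of the disaggregase that takes protein clumps apart. The control libraries held 26.1, 26.7 and 27.1 FPKM, the LPS libraries 32.6, 33.6 and 34.3 and the PIC libraries 36.9, 37.1 and 36.9. TBHQ alone gave 26.0, 27.0 and 28.1, the LPS+TBHQ libraries 29.4, 30.9 and 29.5 and the PIC+TBHQ libraries 31.4, 31.1 and 31.4 FPKM. From the top the conditions ran PIC, LPS, PIC+TBHQ, LPS+TBHQ, TBHQ, control, and of the neighbours only TBHQ and control overlapped. *Hsph1* rose with both stimuli (LPS: log2FC = 0.32 ± 0.04, FDR = 1.76e-09; PIC: log2FC = 0.45 ± 0.04, FDR = 1.82e-13, and 0.24 under total library size), and each stimulus left it lower after TBHQ (LPS+TBHQ against LPS: log2FC = -0.16 ± 0.04, FDR = 6.25e-04). In PIC+TBHQ against PIC the change was -0.23 (FDR = 3.69e-06).

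HSP90 acts late in folding, on kinases, steroid hormone receptors and other signalling proteins, and *Hsp90aa1* encodes its stress-inducible cytosolic form. Control libraries had 258, 257 and 265 FPKM and TBHQ libraries 269, 259 and 258. LPS gave 379, 385 and 372, LPS+TBHQ 380.5, 389 and 385, PIC+TBHQ 387, 400.3 and 396 and PIC 448, 438 and 439 FPKM. The libraries fell into 3 levels, with control and TBHQ lowest and overlapping, PIC+TBHQ, LPS+TBHQ and LPS above them and overlapping in that order, and the PIC libraries above all others. LPS raised the mean 1.45-fold (log2FC = 0.53 ± 0.03, FDR = 5.46e-18) and PIC 1.68-fold (log2FC = 0.75 ± 0.03, FDR = 1.34e-22). TBHQ before PIC lowered it by a small step (log2FC = -0.15 ± 0.03, FDR = 5.51e-05), while for TBHQ before LPS the log2FC was 0.02 (FDR = 0.639).

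J proteins bring clients to HSP70 and start its ATP hydrolysis. *Dnajb1*, also known as HSP40, had 13.3, 14.1 and 13.6 FPKM in the control, 16.9, 17.3 and 15.4 with LPS and 25.1, 23.0 and 23.6 with PIC. TBHQ gave 12.9, 13.2 and 13.9, LPS+TBHQ 14.7, 15.3 and 15.2 and PIC+TBHQ 16.2, 17.3 and 16.3 FPKM. All PIC libraries were above every other library, PIC+TBHQ overlapped LPS, LPS+TBHQ lay below LPS and above the control, and control and TBHQ overlapped at the bottom. *Dnajb1* was 1.73-fold higher with PIC (log2FC = 0.79 ± 0.05, FDR = 3.57e-15) and 1.20-fold higher with LPS (log2FC = 0.26 ± 0.06, FDR = 1.40e-04). TBHQ before PIC lowered it to 0.699 of the PIC level (log2FC = -0.52 ± 0.05, FDR = 7.65e-10). TBHQ before LPS gave log2FC = -0.14 ± 0.05, FDR = 0.0636, which became a call without the third LPS library (log2FC = -0.19, FDR = 0.0182).

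*Dnaja1* encodes a farnesylated J protein of the cytosol. Its control libraries had 33.1, 33.1 and 33.1 FPKM, its LPS libraries 31.1, 36.0 and 33.7 and its PIC libraries 39.9, 38.9 and 37.5. TBHQ alone gave 29.6, 29.3 and 28.5, LPS+TBHQ 29.4, 31.5 and 32.5 and PIC+TBHQ 32.5, 34.2 and 33.2 FPKM. The PIC libraries were highest without overlap, LPS, PIC+TBHQ and control overlapped in that order, LPS+TBHQ lay below the control, and TBHQ had the lowest mean and overlapped LPS+TBHQ. *Dnaja1* fell with TBHQ alone (log2FC = -0.19 ± 0.04, FDR = 8.83e-04) and with TBHQ before PIC (log2FC = -0.21 ± 0.04, FDR = 2.06e-04). It rose with PIC (log2FC = 0.21 ± 0.04, FDR = 5.43e-05), but scaling by total library size turned this to -0.01 (FDR = 0.894). With TBHQ before LPS it narrowly missed the threshold (log2FC = -0.11 ± 0.04, FDR = 0.0531), DESeq2 called it (-0.11, FDR = 0.0473), and it was called when the first LPS library (log2FC = -0.17, FDR = 0.00415) or the third LPS+TBHQ library (-0.15, 0.0242) was left out, as it was without PIC replicate 1, 2 or 3 (-0.11 each, FDR 0.0459, 0.0483 and 0.0378). In the files *Dnaja1* overlaps *Smu1* on the other strand over 608 bases, where *Smu1* had 1217 to 1858 counts in all.

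*Bag3* encodes a cochaperone that exchanges the nucleotide of HSP70 and links it to autophagy of misfolded protein. It had 17.6, 16.8 and 18.7 FPKM in the control, 21.4, 23.2 and 22.0 with TBHQ and 16.8, 14.3 and 18.2 with LPS. PIC gave 17.2, 17.3 and 18.5, LPS+TBHQ 17.8, 18.9 and 18.8 and PIC+TBHQ 19.1, 18.05 and 18.5 FPKM. The TBHQ libraries were above those of every other condition, and the rest, PIC+TBHQ, LPS+TBHQ, control, PIC and LPS in order of mean, overlapped with their neighbours. *Bag3* was called in TBHQ against control only (log2FC = 0.33 ± 0.06, FDR = 1.14e-04). With LPS against control it gave -0.12 (FDR = 0.153), which became a call without the third LPS library (-0.19, FDR = 0.0201) and under total library size (-0.20, FDR = 0.00907). In LPS+TBHQ against LPS it gave 0.17 (FDR = 0.0568), and without the third LPS library 0.25 (FDR = 0.00686). It was also called there under total library size (0.19, FDR = 0.0249), without a filter on low counts (0.18, FDR = 0.0421) and with the replicate number in the fit (0.17, FDR = 0.0457).

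In the mitochondrial matrix, HSP60 (*Hspd1*) forms the barrel in which imported proteins fold and HSP10 (*Hspe1*) is its lid. The genes lie head to head on chromosome 1, *Hspd1* at 55116994 to 55127402 on the minus strand and *Hspe1* at 55127291 to 55130466 on the plus strand in the coordinates of the authors' files, with an overlap of 112 bases. *Hspd1* had 343, 342 and 337 FPKM in the control, 352, 349 and 348 with TBHQ and 306, 320.0 and 305 with LPS. The LPS+TBHQ libraries had 306, 305 and 314, the PIC libraries 312, 306 and 323 and the PIC+TBHQ libraries 299.9, 298 and 308 FPKM. TBHQ and control were the higher groups without overlap with each other or with the stimulated cells, and the 4 stimulated conditions, PIC, LPS, LPS+TBHQ and PIC+TBHQ in order of mean, overlapped. *Hspd1* fell with LPS (log2FC = -0.14 ± 0.03, FDR = 1.46e-04) and with PIC (log2FC = -0.14 ± 0.03, FDR = 1.64e-04), by more under total library size (-0.23 and -0.35). Adding TBHQ to no stimulus, to LPS or to PIC gave 0.04, -0.01 and -0.04 (FDR = 0.419, 0.836 and 0.299), none of them called.

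*Hspe1* had 155, 144 and 153 FPKM in the control, 144, 152 and 148 with LPS and 158, 151 and 137 with PIC. TBHQ alone gave 126, 116 and 123, LPS+TBHQ 119, 119.9 and 116 and PIC+TBHQ 119, 129 and 123 FPKM. In FPKM all 9 libraries with TBHQ were below all 9 without it, while the 3 conditions on each side overlapped with their neighbours in the order control, PIC, LPS and PIC+TBHQ, TBHQ, LPS+TBHQ. This full separation rests on the scaling. The third PIC library had 3421 counts of *Hspe1* in a total of 18851626, a smaller share than the 3170 in 16112546 of the first TBHQ library. *Hspe1* fell with TBHQ without a stimulus (log2FC = -0.31 ± 0.04, FDR = 1.57e-06), with LPS (log2FC = -0.32 ± 0.05, FDR = 7.52e-07) and with PIC (log2FC = -0.25 ± 0.05, FDR = 3.19e-05). The FPKM ratio of *Hspe1* to *Hspd1* was 0.441 ± 0.0177 (mean ± SD of 3 libraries) in the control and 0.348 ± 0.0144 with TBHQ alone. It was 0.476 ± 0.00768 after LPS and 0.384 ± 0.0130 in LPS+TBHQ, and 0.474 ± 0.0433 after PIC and 0.409 ± 0.0212 in PIC+TBHQ.

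**Figure D2:**
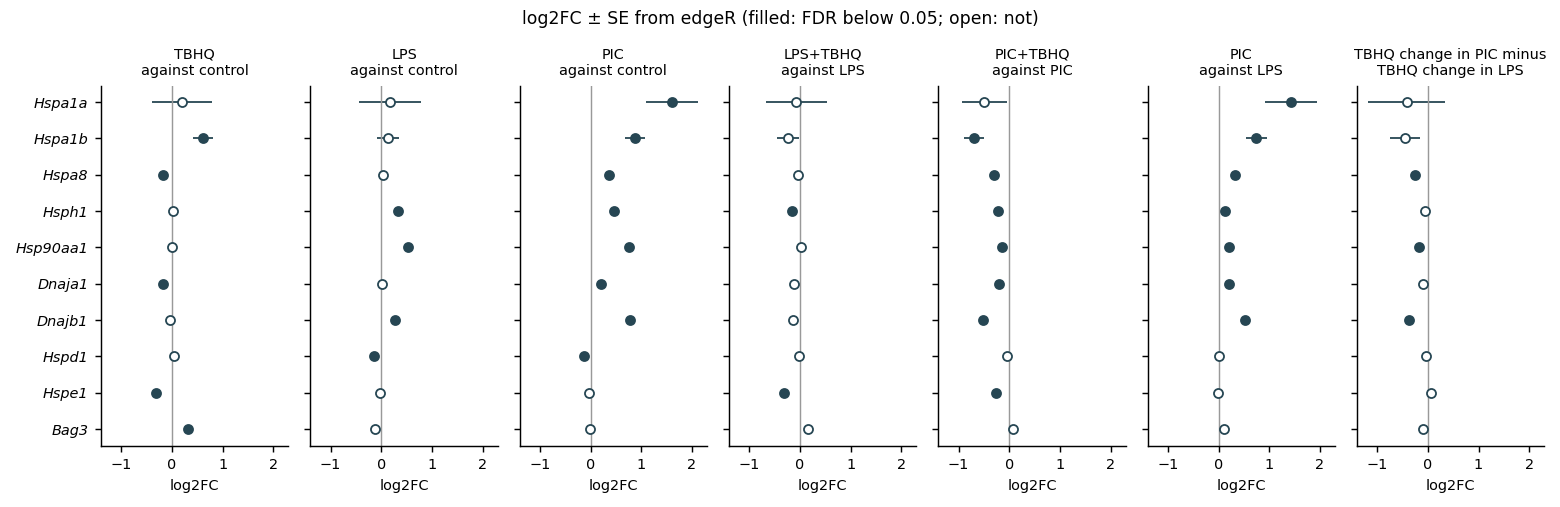
log2FC (horizontal axis) of the 10 genes in 6 comparisons and in the difference between the TBHQ changes after PIC and after LPS, with SE as bars. Filled points are called at an FDR below 0.05. Hspe1 is called lower in all 3 comparisons that add TBHQ, and Hspd1 in none of them.

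LPS and PIC were each compared with the same control libraries, so the results of these comparisons are not independent. With PIC, 7 of 10 rose (*Hspa1a*, *Hspa1b*, *Hspa8*, *Hsph1*, *Hsp90aa1*, *Dnaja1*, *Dnajb1*), 1 fell (*Hspd1*), and *Hspe1* and *Bag3* were not called. Of all genes tested 58.7% were called in this comparison, 28.6% higher and 30.1% lower. At a mean of at least 50 counts, which leaves out *Hspa1a*, 7 of 9 members were called in either direction, beside 68.0% of all such genes. The median log2FC of the 10 genes was 0.41 and that of all genes tested -0.01. Scaling by total library size moved the median of all genes to -0.23 and that of the 10 genes to 0.19, so that 6 were called higher and 3 lower, with *Hspe1* (-0.25, FDR = 6.74e-06) and *Bag3* (-0.23, FDR = 0.00183) among the lower. Of all genes 17.4% were called higher and 48.5% lower under that scaling. With TMM as with total library size, *Hspa1a*, *Hspa1b*, *Hspa8*, *Hsph1*, *Hsp90aa1* and *Dnajb1* were higher with PIC and *Hspd1* was lower, but the sizes differed: under total library size the log2FC was 1.39, 0.67, 0.14, 0.24, 0.53, 0.57 and -0.35 in this order. For *Hspa1a* this adds no support under either scaling, since it passed the filter only through libraries of PIC and PIC+TBHQ.

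With LPS, 3 of 10 genes rose (*Hsph1*, *Hsp90aa1*, *Dnajb1*) and *Hspd1* fell, where 48.1% of all genes tested were called, 24.0% higher and 24.1% lower. This share of the 10 genes is near that of all genes. Their median log2FC was 0.09, against -0.00 over all genes. Under total library size 3 were called higher and 3 lower, with *Hspe1* (-0.12, FDR = 0.0247) and *Bag3* added to the lower ones, where 17.9% of all genes were higher and 33.3% lower, at a median of -0.00 beside -0.09 over all genes. *Hsph1*, *Hsp90aa1*, *Dnajb1* and *Hspd1* then stood at 0.23, 0.45, 0.18 and -0.23. With TMM, 4 of the 9 members with a mean of at least 50 counts were called, beside 57.1% of all such genes.

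PIC set directly beside LPS, both after 12 h, gave 7 of 10 genes higher with PIC (*Hspa1a*, *Hspa1b*, *Hspa8*, *Hsph1*, *Hsp90aa1*, *Dnaja1*, *Dnajb1*) and 0 lower, where 27.7% of all genes tested were called, 14.9% higher and 12.8% lower. edgeR counted 7 at an unadjusted p below 0.05 as well (36.8% of all genes), and DESeq2 called 6 at an FDR below 0.05, where it called 15.2% of all genes higher and 10.9% lower. Without *Hspa1a*, which the filter admitted through its high groups, edgeR called 6 of 9 members, beside 34.1% of all genes with a mean of at least 50 counts. Apart from the rare *Hspa1a* and *Hspa1b*, given below, *Dnajb1* had the largest log2FC (0.52 ± 0.05, FDR = 9.10e-10), followed by *Hspa8* (log2FC = 0.33 ± 0.03, FDR = 6.89e-11), *Hsp90aa1* (log2FC = 0.21 ± 0.03, FDR = 2.25e-07), *Dnaja1* (log2FC = 0.20 ± 0.04, FDR = 4.63e-04) and *Hsph1* (log2FC = 0.13 ± 0.04, FDR = 0.00432). The median of the 10 genes was 0.21, against -0.01 over all genes. Under total library size 5 were called higher and 2 lower, at medians of 0.08 and -0.14, where 7.19% of all genes were higher and 31.9% lower. Under that scaling *Dnajb1*, *Hspa8* and *Hsp90aa1* fell to 0.39, 0.20 and 0.08 (FDR = 0.0183 for *Hsp90aa1*), *Hsph1* (0.00, FDR = 0.957) and *Dnaja1* (0.07, FDR = 0.218) were no longer called, *Hspe1* was called lower (-0.13, FDR = 0.0176), and *Hspd1*, at 0.01 with TMM, turned to -0.12 (FDR = 0.00101).

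The calls of the rare HSP70 genes in PIC against LPS rest on few reads. *Hspa1b* (log2FC = 0.75 ± 0.20, FDR = 0.00438) was not called without the second PIC library (log2FC = 0.54, FDR = 0.0647). *Hspa1a* (log2FC = 1.44 ± 0.51, FDR = 0.0323) lost its call without the second PIC library (0.93, FDR = 0.260) and without the third (1.46, 0.0585). Leaving out LPS replicate 1, 2 or 3 also ended it (FDR = 0.0763, 0.0513 and 0.105), at folds of 2.71, 3.00 and 2.46 beside 2.70 in the main fit. So did DESeq2 (1.47, FDR = 0.0593), edgeR on the compared conditions alone (1.43, 0.0511), no filter on low counts (1.44, 0.0638) and limma on log2(FPKM + 0.1) (0.84, 0.0605).

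TBHQ alone for 4 h changed 5 of 10 genes, where 29.0% of all genes tested were called, 14.2% higher and 14.8% lower. *Hspa1b* and *Bag3* rose, and *Hspa8*, *Dnaja1* and *Hspe1* fell. For the remaining 5 genes the log2FC lay between -0.04 and 0.20, and none was called. The median of the 10 genes was 0.01, against -0.00 over all genes. Of the 9 members with a mean of at least 50 counts 5 were called, beside 35.7% of all such genes.

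TBHQ before LPS changed 2 of 10 genes, *Hsph1* and *Hspe1*, both lower, where 23.9% of all genes tested were called, 11.7% higher and 12.2% lower. The number called higher was 0, and at an unadjusted p below 0.05 edgeR counted 5 in both directions together (34.0% of all genes). DESeq2 called 3 lower and 0 higher, and of all genes 11.6% and 11.1%. Under total library size 1 was called higher (*Bag3*, 0.19, FDR = 0.0249) and 2 lower, and of all genes 15.1% and 10.2%. The median was -0.09, against 0.00 over all genes. In the main fit 2 of the 9 members with a mean of at least 50 counts were called, beside 29.5% of all such genes.

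TBHQ before PIC changed 7 of 10 genes, where 31.3% of all genes tested were called, 15.8% higher and 15.5% lower. *Hspa1b*, *Hspa8*, *Hsph1*, *Hsp90aa1*, *Dnaja1*, *Dnajb1* and *Hspe1* were lower, and 0 genes were higher. edgeR counted 7 at an unadjusted p below 0.05 (40.0% of all genes), and DESeq2 called 7 lower and 0 higher, where it called 29.0% of all genes. The median was -0.24, against 0.01 over all genes. Total library size left 7 lower and 0 higher, at medians of -0.17 and 0.08, where 10.5% of all genes were lower and 24.8% higher. The log2FC of *Hsp90aa1* was then -0.08 (FDR = 0.0211). With TMM, 7 of the 9 members with a mean of at least 50 counts were called, beside 38.3% of all such genes. The PIC libraries also stand in PIC against control, so these comparisons are not independent.

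Whether TBHQ acted differently after PIC than after LPS was tested as the difference between its log2FC in the 2 settings. For 3 of 10 genes this difference was called, all towards a lower value after PIC, where 1.83% of all genes tested were called, 0.825% higher and 1.01% lower. They were *Dnajb1* (log2FC = -0.38 ± 0.08, FDR = 0.00280), *Hspa8* (log2FC = -0.25 ± 0.04, FDR = 3.13e-04) and *Hsp90aa1* (log2FC = -0.17 ± 0.04, FDR = 0.0121). *Hsp90aa1* was not called under total library size (-0.13, FDR = 0.0785). edgeR counted 3 genes at an unadjusted p below 0.05 (14.2% of all genes) and 0 called higher, as did DESeq2 at an FDR below 0.05, where it called 2.94% of all genes. For *Hspe1* the difference was log2FC = 0.07 ± 0.06, FDR = 0.695, and for *Hsph1* log2FC = -0.07 ± 0.05, FDR = 0.615, so a difference between the settings was not detected for either. The median of the 10 genes was -0.14, against 0.01 over all genes. Of the 9 members with a mean of at least 50 counts 3 were called, beside 2.37% of all such genes.

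Across the 18 libraries the members did not move as 1 block. Pearson correlations of log2 CPM were above 0 in 31 of the 45 pairs of members, with a median of 0.357. They were close between *Hspa8* and *Dnajb1* (0.930), *Hspa8* and *Dnaja1* (0.926) and *Hsph1* and *Dnajb1* (0.910), and opposite between *Hsp90aa1* and *Hspd1* (-0.896). The libraries fall into 6 conditions and each value carries its library's scaling, so these are descriptions without a test. Among 10450 genes with a mean of at least 50 counts, *Dync1i2* (0.967), *Sppl2a* (0.964), *Rnf6* (0.960), *Tiparp* (0.956) and *Crk* (0.955) had the pattern most like *Dnajb1*. *Srsf1* (0.975), *Usp14* (0.967), *Dhx9* (0.966), *Selenoi* (0.965) and *Anp32b* (0.964) were most like *Hspd1*. For *Hspa1a*, with few counts, the nearest were *Pqbp1* (0.787), *Klhdc3* (0.780), *Arpc3* (0.776), *Erlin2* (0.771) and *Eif4e* (0.770).

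Chaperone genes of the same families were counted on fixed lists, given as higher and lower among those tested. Of all genes tested, 28.6% were higher and 30.1% lower with PIC, 24.0% and 24.1% with LPS, 14.2% and 14.8% with TBHQ alone, and 15.8% and 15.5% in PIC+TBHQ against PIC, all with TMM. Under total library size 17.4% were higher and 48.5% lower with PIC. Counts on lists of this size are set beside these shares without a test. *Hsf1*, *Hsf2* and *Hsbp1*, 2 factors that drive heat shock genes and a binding protein of HSF1, were not called with LPS or PIC. With PIC 1 of these 3 was higher under RLE scaling and 1 lower under total library size, which also made 1 lower with LPS. Under TMM *Hsf1* had a log2FC of -0.12 ± 0.07 and -0.14 ± 0.07 (FDR = 0.159 and 0.0775). *Hsf1* was not called in the other comparisons either, and *Hsf2* was lower in PIC+TBHQ against PIC (-0.27 ± 0.08, FDR = 0.0105), a call lost under total library size (-0.20, FDR = 0.0537). Of 7 other cytosolic HSP70 and HSP110 genes, 1 was higher and 1 lower with PIC (median -0.31), and 1 and 2 under total library size. The HSP110 gene *Hspa4l* rose (0.95 ± 0.06, FDR = 8.38e-17) and *Hspa14*, a ribosome-associated HSP70, fell (-0.65 ± 0.06, FDR = 1.39e-12). *Hspa4l* was also lower with TBHQ before PIC (-0.30 ± 0.05) and before LPS (-0.24 ± 0.05).

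Of 12 genes for other cytosolic HSP90 and its cochaperones, 4 were higher and 4 lower with PIC (median -0.00), and 3 and 8 under total library size. *Hsp90ab1*, the constitutive HSP90, rose with PIC (0.56 ± 0.03, FDR = 2.29e-19) and with LPS (0.38 ± 0.03, FDR = 3.06e-14). *Fkbp5*, a cochaperone of steroid receptor complexes, fell with PIC (-0.72 ± 0.06) and was higher with TBHQ before PIC (0.34 ± 0.06). *Stip1*, which bridges HSP70 and HSP90, was the lowest of the list in PIC+TBHQ against PIC (-0.22 ± 0.04, FDR = 2.53e-05). Of 9 other cytosolic J protein genes, 6 were higher and 1 lower with PIC (median 0.30), and 4 and 3 under total library size. *Dnajb4* rose with PIC (0.78 ± 0.08), with LPS (0.80 ± 0.08) and with TBHQ (0.48 ± 0.08).

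Of 8 genes for other nucleotide exchange factors and HSC70 cofactors, 1 was higher and 5 lower with PIC (median -0.24), and 0 and 7 under total library size. *Bag2* fell (-0.83 ± 0.09, FDR = 5.10e-10), and *St13* rose (0.21 ± 0.03) but stood at -0.01 (FDR = 0.783) under total library size. Of 5 small heat shock protein genes only *Hspb6* was tested, and it fell with PIC (-1.27 ± 0.21) and with LPS (-0.86 ± 0.20). Of the 8 genes of the TRiC chaperonin, which folds actin and tubulin, 5 were higher and 0 lower with PIC (median 0.10), but 1 and 5 under total library size, where the median was -0.12. *Cct3* rose under both (0.56 ± 0.03 with TMM). Of 6 prefoldin genes, whose product hands clients to TRiC, 0 were higher and 3 lower with PIC (median -0.11; 0 and 6 under total library size), and 0 and 4 with TBHQ alone (median -0.18), where of all genes 30.1% were lower with PIC and 14.8% with TBHQ.

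Of 12 genes for other mitochondrial chaperones and proteases, 3 were higher and 5 lower with PIC (median -0.10), and 1 and 9 under total library size. *Grpel1*, the exchange factor of mitochondrial HSP70, rose (0.34 ± 0.05, FDR = 1.55e-07) and *Hscb*, a J protein of iron-sulfur cluster assembly, fell (-0.89 ± 0.10, FDR = 8.10e-10). With TBHQ before PIC, where 15.8% of all genes were higher and 15.5% lower, 5 of the 12 were higher and 1 lower (median 0.10), the lower being *Hspa9* (-0.13 ± 0.03), the mitochondrial HSP70, whose call was lost under total library size (-0.06, FDR = 0.1002). For comparison, of 31 genes of the proteasome core and its cap, which degrade what is not folded, 27 were higher and 0 lower with PIC (median 0.21), and 11 and 5 under total library size (median -0.00). Of all genes tested 28.6% were higher and 30.1% lower with PIC under TMM, and 17.4% and 48.5% under total library size. In PIC+TBHQ against PIC, 0 were higher and 1 lower of the 7 HSP70 and HSP110 genes, and 3 and 5 of the 12 HSP90 genes. The counts were 0 and 4 of the 9 J protein genes, and 3 and 1 of the 8 exchange factor and cofactor genes. For TRiC they were 0 and 3 of 8, for prefoldin 1 and 2 of 6, and for the proteasome 1 and 11 of 31.

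**Figure D3:**
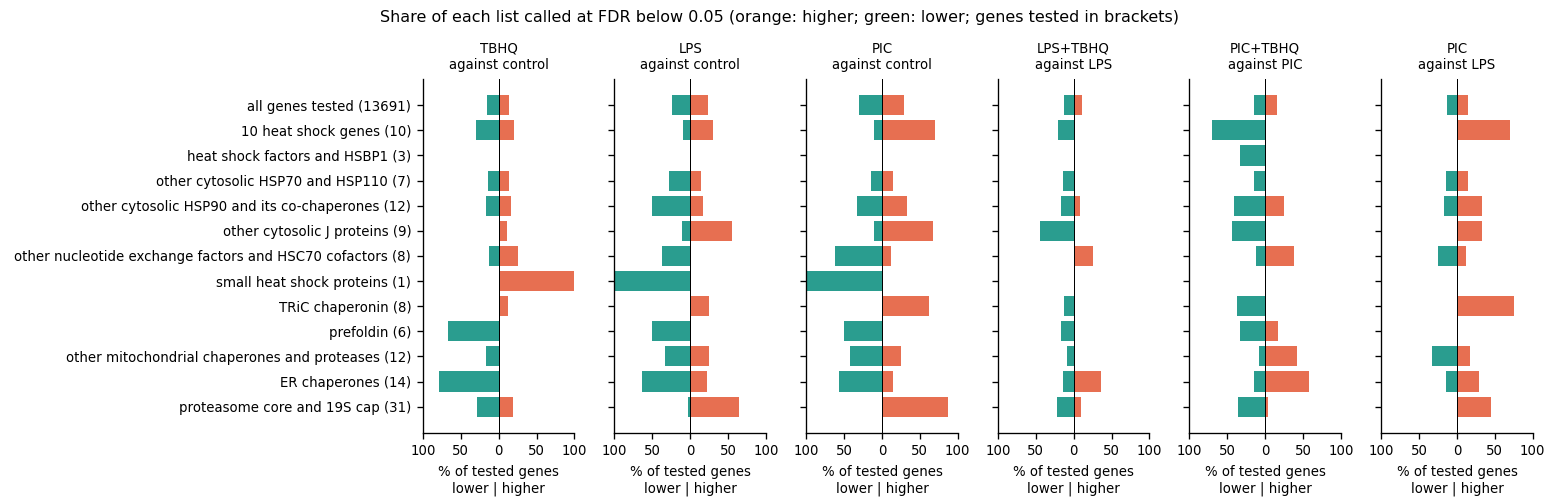
Percent of the tested genes of each list (horizontal axis) called higher (orange, to the right) or lower (green, to the left) in 6 comparisons with edgeR and TMM. The number of genes tested stands in brackets after each list. Of the 10 heat shock genes 7 are higher in PIC against control (among them Hspa1a, which passed the filter only through PIC and PIC+TBHQ libraries) and 7 lower in PIC+TBHQ against PIC. Under total library size these are 6 and 7, and TRiC turns to 1 higher and 5 lower with PIC.

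HSF1 binds inverted nGAAn repeats, so the promoters of the members were searched for them. RefSeq windows of 300 bases in GRCm38, from 250 bases before to 50 after a start, were found for 8 of the 10 members, 13 windows in all. *Hspa8* and *Hsp90aa1* had none. The letters GAANNTTC and TTCNNGAA were searched, each of which reads the same on both strands, and the triples GAANNTTCNNGAA and TTCNNGAANNTTC, each the reverse complement of the other and each holding both pairs. A pair of either kind lies in a window of 7 of the 8 members and of 17.0% of 27025 genes. A triple lies in a window of 3 of the 8 (*Hspd1*, *Hspe1*, *Hsph1*) and of 0.662% of genes. The triples of *Hspd1* and *Hspe1* are the same bases, and the windows of *Hspa1a* and *Hspa1b* are nearly the same, so these members are not independent matches. The windows of *Dnajb1* hold no pair, and that of *Bag3* holds 1 after the start. These are matches of letters, and binding was not measured.

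The stretch below is shown because *Hspd1* and *Hspe1* share it, and of the pair *Hspe1* but not *Hspd1* was called with TBHQ. It lies at chr1:55088053-55088082 and is printed on the plus strand, 5′ to 3′, with its first base at -95 and its last at -66 from the start of *Hspe1*. Capitals mark the GAA and TTC units. On the minus strand the same bases lie at -150 to -121 from 1 of the 2 starts of *Hspd1*. GENCODE places them inside an exon of *Hspd1*, and the window of the other *Hspd1* start, which lies upstream of them, holds 0 pairs.
Hspe1: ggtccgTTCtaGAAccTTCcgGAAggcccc

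The next pair is shown because reads of *Hspa1a* and *Hspa1b* cannot be fully told apart and the promoters are nearly the same as well. Their windows differ at 4 of 300 bases, 3 of them before the start. Both stretches are on the minus strand, at -134 to -67 from the start, in chr17:34972223-34972290 for *Hspa1a* and chr17:34959305-34959372 for *Hspa1b*, with the pair in capitals. The level of *Hspa1b* was 1.44 FPKM and that of *Hspa1a* 0.168 on average.
Hspa1a: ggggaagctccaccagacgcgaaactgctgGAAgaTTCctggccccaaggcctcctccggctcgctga
Hspa1b: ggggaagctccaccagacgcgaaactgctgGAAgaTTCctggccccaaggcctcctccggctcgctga

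The last is from *Hsph1*, which rose with LPS and with PIC and was lower after TBHQ in each. It lies at chr5:149636356-149636375 on the minus strand, at -39 to -20 from 1 RefSeq start and -60 to -41 from the other, with its pair in capitals. GENCODE places it in an exon of *Hsph1*. The triple of *Hsph1* lies after the starts and is not shown.
Hsph1: gaatctTTCtcGAAggctcg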

How the data were processed

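The authors deposited raw counts per gene, without normalization, from poly(A) RNA of 18 libraries. The authors also deposited FPKM, which equals counts over gene length and library total times a constant per library (0.943 to 1.12), for 100% of genes with at least 100 counts within 0.1%. The gene length in bases is that of the deposited count table. Novogene aligned the reads. The submitters' processing notes name HISAT2 2.0.5, StringTie 1.3.3b and featureCounts 1.5.0-p3, and the builds GRCm38 and mm39. The methods describe strand-specific libraries, while the submitters' notes name directional and non-directional ones. The strand option of the counting and the annotation release are not given in the sources used here.

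Tables were prepared with pandas 2.3.3 and numpy 2.4.6 in Python 3.11.15, and figures with matplotlib 3.10.9. In R 4.3.3, genes were filtered with edgeR 4.0.16 (filterByExpr, 13691 genes), scaled by TMM and tested by quasi-likelihood (glmQLFit, glmQLFTest) over the 18 libraries, with 1 coefficient per condition and Benjamini-Hochberg adjustment. The common dispersion was 0.00192. SE is |log2FC|/√F. Log2 CPM used a prior count of 2. Replicates were treated as independent, and p-values measure only the spread between these libraries. The steps were tested on simulated data.

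Members and lists were chosen with earlier results of these data known. All members are named. Genes named from the 11 lists (115 genes) were taken from the called genes with the highest or the lowest log2FC of a list in a comparison, at a mean of at least 50 counts. Only some of these are printed, and *Hsf1* was added to them. Alternatives were DESeq2 1.42.0, edgeR on the compared conditions, RLE or total library size, other filters, stricter thresholds, a replicate factor, limma 3.58.1 on log2(FPKM + 1) and log2(FPKM + 0.1), summed counts of *Hspa1a* and *Hspa1b*, and leaving out each library. Summing *Hspa8* and *Gm15459* was added after the data were seen. Shared words were counted in GENCODE transcripts of GRCm38, and promoter windows are from RefSeq. A gene withheld for evaluation is not reported here.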

Additional observations from a re-analysis of the deposited data

Results flagged for a closer look

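The change that TBHQ made differed between the 2 stimuli for 3 of the 10 genes, by the test of the difference itself (log2FC in PIC+TBHQ against PIC minus log2FC in LPS+TBHQ against LPS), where 1.83% of all genes were called. Scaled by total library size it was 2 of 10, and 2.26% of all genes. For *Dnajb1* the difference was -0.38 (FDR = 0.00280), from -0.52 after PIC and -0.14 after LPS. For *Hspa8* it was -0.25 (FDR = 3.13e-04), from -0.29 and -0.04, and -0.27 with the counts of *Gm15459* added. For *Hsp90aa1* it was -0.17 (FDR = 0.0121), from -0.15 and 0.02, and under total library size -0.13 (FDR = 0.0785).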

How the results depend on the processing

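Of 1904 values of single genes under an alternative, 1826 kept direction and side of the threshold, 18 lost the call, 22 gained it and 38 had the other sign. Of these 38, 2 were called under either setting, both with total library size: *Dnaja1* in PIC against control (-0.00702) and *Hspd1* in PIC against LPS (-0.12). The other 36 were called under neither. Under total library size they were *Hspa8* (-0.0531) and *Dnaja1* (-0.0741) in LPS against control, *Bag3* in PIC against LPS (-0.0308), and *Hspd1* in LPS+TBHQ against LPS (0.0130), in PIC+TBHQ against PIC (0.0258) and in the difference between these (0.0128). *Bag3* in PIC against control turned under DESeq2 (0.00140), RLE (0.00154) and a mean of at least 50 counts (0.00808), *Hspe1* in PIC against LPS under DESeq2 (0.00627), RLE (0.00637) and limma on log2(FPKM + 1) (0.00426) or log2(FPKM + 0.1) (0.00428), and *Hspd1* in LPS+TBHQ against LPS without a filter (0.00327). With 1 library left out 22 turned, and their genes ranged as follows: in TBHQ against control *Hspa1a* -0.135 to 0.697, *Hsph1* -0.00892 to 0.0451 and *Hsp90aa1* -0.0121 to 0.0246, in LPS against control *Hspa1a* -0.165 to 0.667, *Hspa1b* -0.0731 to 0.287 and *Dnaja1* -0.0288 to 0.0689, in PIC against control *Hspe1* -0.0706 to 0.0351 and *Bag3* -0.0565 to 0.0240, in LPS+TBHQ against LPS *Hspa1a* -0.532 to 0.220 and *Hspd1* -0.0252 to 0.0120, in PIC+TBHQ against PIC *Hspa1a* -0.871 to 0.000858, in PIC against LPS *Hspd1* -0.00876 to 0.0328 and *Hspe1* -0.0450 to 0.0588, and in the difference *Hspa1a* -0.799 to 0.0732 and *Hspe1* -0.00365 to 0.1002.

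Total library size also moved the median of the 10 genes to -0.00266 in LPS against control, 0.190 in PIC against control, -0.172 in PIC+TBHQ against PIC and 0.0754 in PIC against LPS. All genes moved with it, as that scaling leaves out TMM.

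With calls limited to FDR below 0.01 and |log2FC| over 2, the number of the 10 genes called was 0 in each of the 7 comparisons, where edgeR counts at an unadjusted p below 0.05 are 5 for TBHQ (37.9% of all genes), 4 for LPS (53.1% of all genes), 8 for PIC (61.9% of all genes), 5 for LPS+TBHQ (34.0% of all genes), 7 for PIC+TBHQ (40.0% of all genes), 7 for PIC against LPS (36.8% of all genes) and 3 for the difference (14.2% of all genes). At the stricter limits, of all genes tested 3.57% passed in PIC against control, 1.64% in LPS against control, 0.387% in LPS+TBHQ against LPS, 0.307% in PIC against LPS, 0.299% in PIC+TBHQ against PIC, 0.190% in TBHQ against control and 0% in the difference. With the limit at 1 it was 1 in PIC against control (*Hspa1a*), where 12.0% of all genes passed, and 0 in the other 6, where 0.0950% (the difference) to 6.43% (LPS against control) did. *Hspa1a* passed the filter on low counts only through libraries of PIC and PIC+TBHQ, so this 1 gene adds no support. In LPS+TBHQ against LPS the number rose from 2 of 10 to 4 of 9 with a mean of at least 50 counts (*Dnaja1* and *Dnajb1* added) and to 4 of 10 with the replicate block (*Dnaja1* and *Bag3* added), where 23.9%, 31.0% and 24.2% of all genes were called, and the cause was not tested. The labels state no pairing by number. Deviations from the condition mean correlated with a median of 0.0260 in 45 same-numbered pairs (from -0.0719 to 0.142, 2 above 0.1) and of -0.0114 in 90 other pairs, and 11 of 18 libraries correlated best with their own number. Leaving out each library in turn gave 4 to 5 genes called in TBHQ against control, 4 to 5 in LPS against control, 7 to 8 in PIC against control, 2 to 4 in LPS+TBHQ against LPS, 6 to 7 in PIC+TBHQ against PIC, 5 to 7 in PIC against LPS and 3 each time in the difference. *Hspa1a* has no value under a mean of at least 50 counts. Replicates varied beyond counting error (chi-square per gene 2.49 to 4.62), which the 3-count floor does not cover.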

Other observations

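Chaperones of the endoplasmic reticulum, which fold secreted and membrane proteins under control of the unfolded protein response, were counted on a list of 14. With TBHQ alone 0 were higher and 11 lower, where 14.2% of all genes tested were higher and 14.8% lower, at a median log2FC of -0.35 beside -0.00 over all genes tested. *Dnajb9* was the lowest (-0.95 ± 0.06, FDR = 1.45e-15). With PIC 2 were higher and 8 lower (median -0.08), or 1 and 12 under total library size, and with LPS 3 and 9 (median -0.11), where of all genes 28.6% were higher and 30.1% lower with PIC and 24.0% and 24.1% with LPS, and 17.4% and 48.5% with PIC under total library size. *Dnajb9* was higher with each stimulus (0.82 ± 0.05 with PIC, 0.64 ± 0.05 with LPS), and *Sdf2l1* was lower (-0.52 ± 0.04 with PIC). In PIC+TBHQ against PIC 8 were higher and 2 lower (median 0.12), beside 15.8% and 15.5% of all genes, with *Sdf2l1* at 0.46 ± 0.04 and *Dnajb9* at -0.43 ± 0.05. By design TBHQ alone ran for 4 h and the control for 12 h, and the part of this in TBHQ against control was not tested.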
